A study of Gallus gallus with 18 samples.

Results

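The comparison described here is that of chicken brain after 3 h of heat with control brain. It rests on 6 of the study's 18 Affymetrix chicken genome arrays, chosen by their titles: the 3 brain arrays labelled T3 and the 3 labelled T0. Per the labels, young chickens were kept at 28 ± 1 °C for 8 days with free access to feed and water, and then either stayed at that temperature (T0, control) or went to 40 ± 1 °C for 3 h (T3, heat). The study used 24 birds, 12 male and 12 female, and also took liver and leg muscle. The labels call the brain samples cerebral cortex and each array a biological replicate. They do not say which birds, how many of them or which sex gave the RNA of an array. The T0 and T3 labels go with the treatment, so time of sampling and heat cannot be told apart. No strain, transgene or drug is named.

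Heat unfolds proteins, and cells answer through heat shock factors, which switch on genes of cytosolic chaperones, the proteins that refold or hold damaged ones. Misfolded protein inside the endoplasmic reticulum (ER) calls on a separate set of chaperones through the unfolded protein response. In forebrain, most neurons are either glutamatergic, which excite their targets, or GABAergic, which inhibit them. Astrocytes, oligodendrocytes (the cells that make myelin), microglia and vessels make up the rest of the tissue. The arrays measure RNA from all of these together, so fewer cells of a type and less RNA per cell cannot be told apart in any value below.

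Each value is a probe set's intensity as deposited, an arbitrary unit of brightness set by hybridisation of labelled RNA to short probes of 1 gene. The array holds 38439 probe sets other than the manufacturer's controls, of which 27168 carried 1 gene symbol. Changes are differences of log2(intensity + 16), heat minus control, so that 1 is a doubling for bright probe sets and the change of dim ones is understated. The 19220 probe sets whose mean level in brain reached that of the median probe set, an intensity of 96.1, were tested with limma, and a change was called at a Benjamini-Hochberg adjusted p under 0.05. Of these, 2361 were called (12.3%). The 1258 that rose made up 6.55% of those tested and the 1103 that fell 5.74%, so that 53.3% of calls were rises; with the array medians set equal, 37.3% of 2365 calls were rises. With 1 probe set for each of 9435 genes, 507 rose (5.37%) and 646 fell (6.85%), and the median change was -0.03. For 16.7% of these genes all 3 heat arrays lay above all 3 control arrays, and for 21.5% they lay below. The level filter used the mean over all 6 arrays. A probe set below it in 1 group could thus pass only through the other group, and its change could then have only that direction. Rises named below with a control level under the filter include TMA7, SCN1A, IFIH1, C2H8ORF76 and HECTD2. Falls with a heat level under it include LOC416055, C20orf96 and a BLB1 probe set.

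The arrays were not equal in what they held. Markers of hepatocytes, the main cells of liver, read a median of 0.53% to 0.69% of their liver level on the control arrays, and 17.3%, 0.96% and 1.60% on heat arrays 1, 2 and 3. This is over the 14 of 20 matched markers that were at least 4-fold brighter in liver controls than in brain controls. Their summed intensity was 3414 to 4651 on the control arrays and 47565, 4059 and 5702 on the heat arrays. Skeletal muscle markers, 19 in number, summed to 2752 to 3031 on the control arrays and to 7941, 5849 and 3826 on the heat arrays, from 0.50% to 0.60% of their muscle level against 1.03% to 1.89%. These markers did not all move alike. Of the 11 bright enough to be tested 4 rose and 1 fell, with a median change of 0.11. ACTA1 read 2830, 1619 and 870.1 on the heat arrays and so weighed much in their sums. TNNC1 read 218.6, 462.2 and 463.4 on the control arrays and 259, 163.7 and 178.9 on the heat arrays. Heat array 1 had the highest reading for both sets of markers. The ratio of 3′ to 5′ signal of EEF1A, a measure of RNA integrity, was 1.474, 1.556 and 1.535 on the control arrays and 1.396, 1.316 and 1.365 on the heat arrays, lower on each heat array. The same ratio of ACTB was 1.341, 1.389 and 1.326 on the control arrays and 1.346, 1.172 and 1.08 on the heat arrays. For GAPDH it was 1.053, 1.109 and 1.09 against 1.082, 1.068 and 1.04, and for both of these genes the groups overlapped. Transcripts of the W chromosome, which only hens carry, were read on every array and were chosen for a look after their values were seen: HINTW read 7873, 5060 and 9022 on the control arrays and 5142, 6451 and 10035 on the heat arrays. UBE2R2L, also on W, read 325.3, 183.2 and 302.9 on the control arrays and 135.9, 256.5 and 640.3 on the heat arrays. The groups overlapped for both, and heat array 3 was the highest. What part these differences had in the results was not tested.

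How many changes were called depended on which array was left out. Without heat array 1 the calls went from 2361 to 4434, and 139 of the 143 calls named in the text held. Without control array 1, control array 3 or heat array 2 the calls fell to 11, 21 and 19, and without control array 2 or heat array 3 to 817 and 878. Of the 143 named calls, 9, 12 and 14 held without control array 1, control array 3 or heat array 2. Calls in the following paragraphs are those of all 6 arrays. For part of the lists the counts without heat array 1 stand beside them, and those not given were not always the same. Where the counts without control array 1, control array 3 or heat array 2 are not given for a gene list, they were 0 in both directions, except for the skeletal muscle markers, of which 1, 2 and 1 rose.

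**Figure D1:**
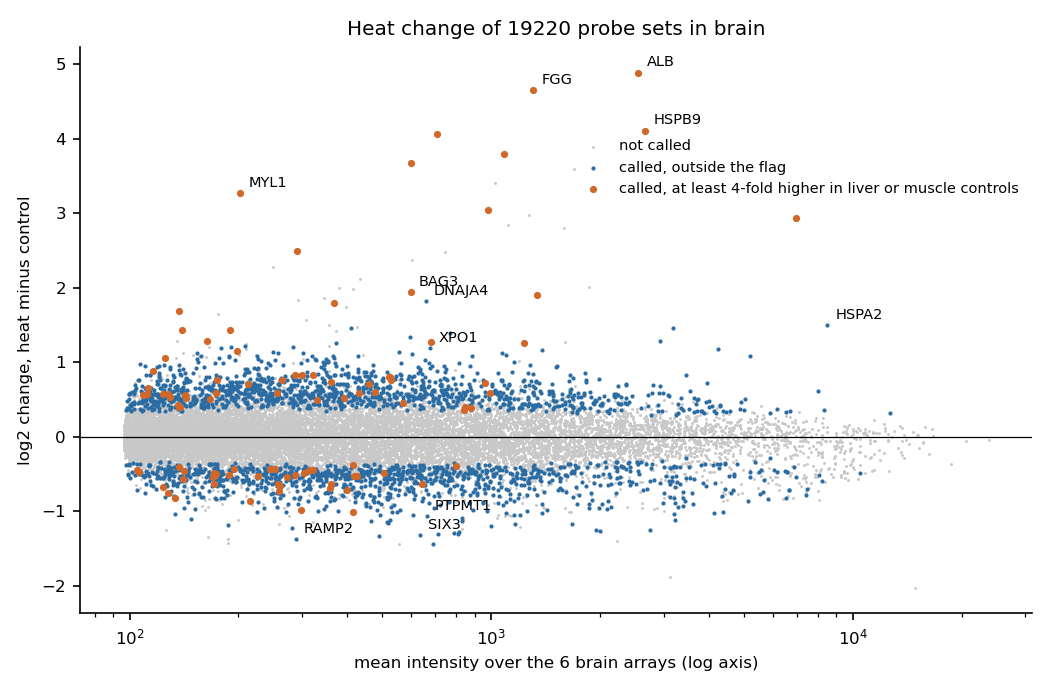
Each point is 1 of the 19220 probe sets tested, by its mean intensity over the 6 brain arrays (log axis) and its log2 change, heat minus control. Blue points were called at an adjusted p under 0.05, orange points were called and were at least 4-fold brighter in liver or muscle controls than in brain controls, and grey points were not called. The largest rises, led by ALB and FGG, are orange.

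Genes outside that 4-fold flag for other tissues were ranked by the gap between the groups, the distance from the nearest heat array to the nearest control array. Chaperones and their partners filled most of the top of the list of rises. DNAJA4, a J-domain partner of HSP70, had the widest gap. It read 249.9, 319 and 281 on the control arrays and 985, 1086 and 1034 on the heat arrays, a rise of 1.82 on the log2 scale (SE 0.12, adjusted p = 0.000978). HSPA4L and HSPH1, nucleotide exchange factors of HSP70, rose by 1.46 and 1.398. The J-domain protein DNAJB4 rose by 1.21, and CHORDC1, a partner of HSP90, by 1.14. The other 3 DNAJB4 probe sets, 2 of them brighter in brain, were not called.

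4 of the 12 widest rises belonged to other kinds of gene. XPO1, the exportin that carries proteins and RNA particles out of the nucleus, read 375, 444 and 399 on the control arrays and 872, 1002 and 969.8 on the heat arrays. Its heat arrays lay close together and far above the brightest control, and the rise was 1.19 (SE 0.11, adjusted p = 0.00574). PLCB1, a phospholipase C that acts below Gq-coupled receptors, read 108, 131 and 116 on the control arrays and 266, 351 and 278 on the heat arrays. Its log2 difference from control brain was -2.08 in control liver and -1.79 in control muscle. In brain it rose by 1.22 (SE 0.13, adjusted p = 0.0108). TMA7, a small protein tied to ribosomes in yeast, read 93.6, 93.8 and 98.6 in control brain and 196, 254 and 211 in heated brain, with controls that lay close together. Another, brighter TMA7 probe set had a change of -0.80 that was not called, so the probe sets of this gene disagreed. TTC3, a ubiquitin ligase, read 128, 167 and 154 in control brain and 407, 322 and 315 in heated brain, and was brightest on heat array 1. XPO1 stayed called in 5 of the 6 fits that each left out an array, PLCB1 and TMA7 in 4, and TTC3 in 3.

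The falls were smaller and more mixed in kind. PTPMT1, a mitochondrial phosphatase of cardiolipin synthesis, had the widest gap. It read 877, 1025 and 804 on the control arrays and 443, 454 and 372 on the heat arrays, a fall of 1.06 (SE 0.13, adjusted p = 0.0127). NEIL1, a DNA glycosylase of base excision repair, read 239, 243 and 231 in control brain and 136, 119.6 and 128 in heated brain. Within each group its arrays differed little, and it fell by 0.82 (SE 0.10). LIPG, the endothelial lipase, read 1529, 1148 and 1495 in control brain and 469, 699.9 and 637 in heated brain and was lowest on heat array 1. It fell by 1.20 (SE 0.17, adjusted p = 0.0163).

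BCAR1, an adaptor of focal adhesions, read 955, 1009 and 1012 in control brain and 622, 450 and 546 in heated brain and fell by 0.87. SEPTIN9, a filament-forming GTPase, fell by 0.81, and FNDC4, a membrane protein with a fibronectin domain, by 0.78. All 3 were lowest on heat array 2. Another FNDC4 probe set of like level had a change of 0.10 and was not called. CHPF, which lengthens chondroitin chains of proteoglycans, read 199, 206 and 195 in control brain and 113, 97.1 and 125 in heated brain and fell by 0.76 (SE 0.11, adjusted p = 0.0163). RAMP2, a partner of the calcitonin-receptor-like receptor, fell by 1.38 and the forebrain homeobox gene SIX3 by 1.32. BLB1, a class II major histocompatibility chain, read 126, 273 and 164 on the control arrays and 77.8, 79.5 and 78.9 on the heat arrays. Its controls spread widely while the heat arrays almost coincided. In control liver this probe set had a mean of 743.6. Another BLB1 probe set, from 559.2 to 270.3 in brain, was 2.78 brighter in control liver than in control brain on the log2 scale and so carried the flag. LOC416055, which has no gene name here, fell by 0.81. Of the 12 falls, 11 stayed called in 3 of the 6 fits that left out an array and BLB1 in 2.

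**Figure D2:**
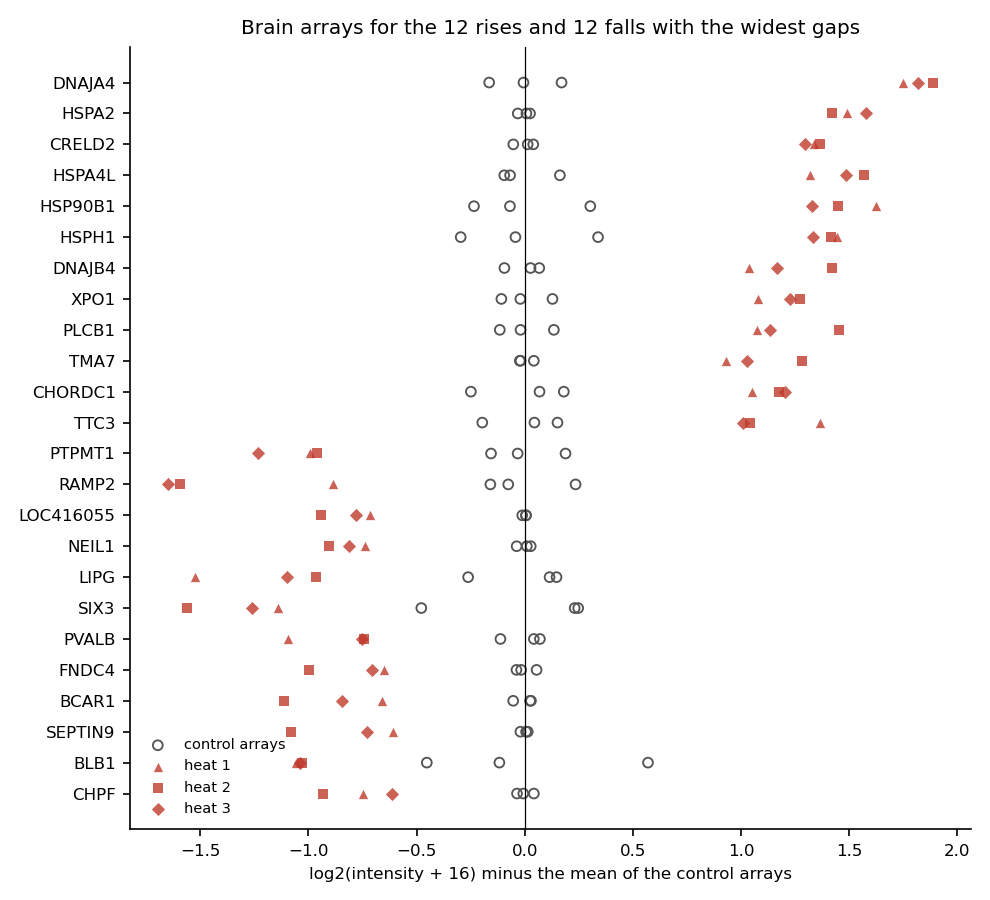
Log2(intensity + 16) of the 12 rises and 12 falls with the widest gaps, each minus the mean of its 3 control arrays. Open circles are control arrays, and filled triangles, squares and diamonds are heat arrays 1, 2 and 3. The groups do not overlap for any of these genes, by the way they were chosen.

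Beyond single genes, 62 lists of genes were described, 15 of cell type or region markers and 47 of processes. Of their 1814 symbols, 1531 matched a probe set and 1313 were bright enough to be tested. Where a gene had several probe sets, the brightest stands for it in these lists. Another probe set had a change of opposite sign that was not called for ATF4, SC5D, LAMC1, PDHB, STX1A and KCNAB2. Each list's counts are to be read against the 5.37% of all genes that rose and the 6.85% that fell. Counts of members whose groups did not overlap are to be read against 16.7% of all genes with heat higher and 21.5% with heat lower. Counts without heat array 1 are to be read against the 8.02% that rose and the 15.7% that fell in that fit.

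Neuron markers, of which 16 were tested, can show that the tissue is brain but not which region it came from. SYT1, the calcium sensor of synaptic vesicles, read 4122, 3645 and 3784 on the control arrays and 4780, 5034 and 4894 on the heat arrays. All 6 arrays were bright for it, and it was called as a rise of 0.35 (SE 0.08, adjusted p = 0.0324). MAP2, which binds microtubules in dendrites, read 350.1, 295 and 322 in control brain and 606, 646 and 491 in heated brain and rose by 0.81 (SE 0.13, adjusted p = 0.0205). In all, 3 of 16 neuron markers rose and 1 fell, with a median of 0.04. In the fit without heat array 1, 5 rose and 3 fell.

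The markers of glutamatergic and GABAergic neurons had medians of opposite sign. Of 13 glutamatergic markers 3 rose and 0 fell, with a median change of 0.30, and 10 had a positive change. That list also held glutamate receptor subunits, and its 3 rises were all of these: GRIA2, GRIA4 and GRIN2A. Whether those calls come from the receptor genes alone or from the cell type was not tested. Of 12 GABAergic markers 0 rose and 3 fell, with a median of -0.40, and 10 had a negative change. The groups did not overlap for 6 of the 12 GABAergic markers, each lower in heat, and for 7 of the 13 glutamatergic ones, 5 higher and 2 lower. Over all genes 16.7% did not overlap with heat higher and 21.5% with heat lower. Without heat array 1, 6 glutamatergic markers rose and 1 fell, and 7 GABAergic ones fell, against 8.02% and 15.7% of all genes that rose and fell in that fit. The lists' difference from each other was not tested.

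The GABAergic genes that fell differ in role. PVALB, the calcium buffer of fast-spiking interneurons, read 4084, 4547 and 4637 on the control arrays and 2060, 2634 and 2613 on the heat arrays. Its heat arrays all lay far below its controls, and it fell by 0.86 (SE 0.11, adjusted p = 0.0134). PVALB was also brighter in leg muscle controls than in brain controls, by 0.67 on the log2(intensity + 16) scale. NPY, neuropeptide Y, read 6403, 4419 and 6567 on the control arrays and 4382, 2871 and 3346 on the heat arrays. Its highest heat array lay just under its lowest control, and it fell by 0.71 (SE 0.19, adjusted p = 0.0451). SLC32A1, the transporter that loads GABA and glycine into vesicles, read 3861, 3683 and 4541 in control brain and 3153, 2707 and 3261 in heated brain and fell by 0.40, with an adjusted p of 0.0491.

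The glutamate receptors, which pass or modulate excitation, gave calls in 1 direction. Of 18 tested, 4 rose and 0 fell, with a median of 0.07; 5 rose without heat array 1. GRIA2, the AMPA receptor subunit that limits calcium entry, read 3035, 3003 and 2915 on the control arrays and 4771, 4501 and 3640 on the heat arrays. All heat arrays lay above the controls, and the rise was 0.52 (SE 0.11, adjusted p = 0.0287). GRIA4 read 174, 261 and 182 in control brain and 359, 371 and 353 in heated brain and rose by 0.78. The NMDA receptor subunit GRIN2A read 284, 362 and 333 in control brain and 573, 595 and 425 in heated brain and rose by 0.67. These 3 genes stand in both the receptor list and the glutamatergic list.

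Of 12 GABA and glycine receptor subunits limma called 0 with all 6 arrays (3 at an unadjusted p under 0.05), and 2 rose and 1 fell without heat array 1. The nearest to the threshold was GABRA3, which read 296, 255 and 327 in control brain and 223, 188 and 218 in heated brain, a change of -0.45 (SE 0.13, adjusted p = 0.0513). GABRA2 read 361, 414 and 474 in control brain and 719.9, 671 and 485 in heated brain, a change of 0.56 with an adjusted p of 0.061. Of 24 receptors for amines and acetylcholine limma called 0, with or without heat array 1, and 2 were lower at an unadjusted p under 0.05.

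Ion channels gave calls in both directions. Of the potassium channel genes 14.3% were called, of the sodium and calcium ones 9.09% and of the TRP channels 28.6%. Over all genes 12.2% were called. Of 21 voltage-gated potassium channel genes 2 rose and 1 fell. KCNAB2, a beta subunit, read 2498, 2398 and 2547 on the control arrays and 1688, 1649 and 1943 on the heat arrays and fell by 0.49 (SE 0.09, adjusted p = 0.0244). KCNQ3, which carries the M-current, rose by 0.63 from a dim level. Of 22 sodium and calcium channel genes SCN1A rose by 0.94 (SE 0.17, adjusted p = 0.024), reading 65.4, 108 and 79.7 in control brain and 146, 202 and 176 in heated brain. The control level of SCN1A lay below the level filter, so it was tested only through its heat arrays. SCN2B, a beta subunit, fell by 0.48. Among 7 channels of the TRP family, several of which sense temperature, TRPM2 read 545, 479.9 and 514 on the control arrays and 293, 296 and 349.6 on the heat arrays. Its heat arrays all lay below its controls and it fell by 0.69 (SE 0.11, adjusted p = 0.0211). TRPM7, which also carries a kinase domain, rose by 0.47, with an adjusted p of 0.0375.

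Genes of vesicle release moved in both directions. Of 27 tested, 4 rose and 2 fell. NAPG, which helps take apart spent SNARE complexes, read 110.5, 137 and 98.9 on the control arrays and 191, 271 and 279 on the heat arrays. The rise was 0.99 (SE 0.17, adjusted p = 0.0215), and heat array 1 was the lowest of the 3. SYT4, a synaptotagmin of dense-core vesicles, rose by 0.71. STX1A, a SNARE of the presynaptic membrane, read 5322, 5571 and 5272 in control brain and 3974, 4263 and 4259 in heated brain and fell by 0.37, with an adjusted p of 0.025. Of 22 neuropeptide genes and their processing enzymes 3 rose and 3 fell. NMB, neuromedin B, read 588, 634 and 719.9 on the control arrays and 383, 411 and 244 on the heat arrays and fell by 0.90 (SE 0.19, adjusted p = 0.0286). NTS, neurotensin, a peptide known in mammals to lower body temperature when given to the brain, read 1352, 2016 and 2057 on the control arrays and 2803, 3080 and 2812 on the heat arrays. Its rise was 0.70 (SE 0.16, adjusted p = 0.0324), with control array 1 lower than the other controls. PAM, the enzyme that amidates peptides, rose by 0.47.

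Of 28 transcription factors that pattern the forebrain 1 rose and 2 fell, with a median of -0.29, and 20 had a negative change. SOX1, a factor of neural precursors, read 173, 149 and 149.9 in control brain and 114, 69.1 and 104 in heated brain and fell by 0.66 (SE 0.16, adjusted p = 0.0388). SOX11, a factor of young neurons, read 412, 422 and 373 in control brain and 484, 587 and 702 in heated brain and rose by 0.52. When heat array 1 was left out, 3 of the 28 rose and 10 fell. The list's mean was close to control on heat array 1 (-0.10) and lower on heat arrays 2 and 3 (-0.48 and -0.35).

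Of 24 genes of Notch and Wnt signalling 0 rose and 3 fell, with a median of -0.19, and 21 had a negative change. The groups did not overlap for 9 of them, 8 lower in heat and 1 higher, against 21.5% and 16.7% of all genes. Without heat array 1, 0 of the 24 rose and 7 fell. FZD7, a Wnt receptor, read 687, 627 and 669 on the control arrays and 448, 244 and 277 on the heat arrays. It fell by 1.04 (SE 0.20, adjusted p = 0.0244), with a change of -1.29 in the fit without heat array 1, which lay between the controls and the other heat arrays. LFNG, which adds sugars to Notch, fell by 0.53, and the Wnt receptor FZD1 by 0.40. A dimmer LFNG probe set had a change of 0.04 and was not called. Of 22 genes of the ID, HES and BMP list 2 rose and 1 fell, and 2 rose and 6 fell without heat array 1. SMAD5 and BMPR2, a transducer and a receptor of bone morphogenetic proteins, rose by 0.59 and 0.53, while ID1, which that pathway switches on in many cells, fell by 1.30. ID1 read 1053, 948 and 1400 on the control arrays and 745, 408 and 287 on the heat arrays.

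Markers of other brain regions and of tissues next to the cortex varied between arrays. Of 7 hypothalamus markers 0 rose and 2 fell. NKX2-1, a homeobox gene of the ventral forebrain, read 193, 204 and 236 in control brain and 143, 124 and 159 in heated brain and fell by 0.52 (SE 0.12, adjusted p = 0.0357). Of 9 markers of cerebellum and midbrain limma called 0 (1 at an unadjusted p under 0.05), but ZIC1 ranged widely, at 2367, 1603 and 1209 on the control arrays and 1976, 817 and 387 on the heat arrays. Of 13 markers of choroid plexus and meninges limma called 0 (2 at an unadjusted p under 0.05), and their mean change was 0.23 on heat array 1, -0.89 on heat array 2 and -0.79 on heat array 3. Without heat array 1, 1 of the 13 rose and 5 fell. COL1A1, a collagen of the meninges, read 1917, 1259 and 1287 in control brain and 1144, 601 and 496 in heated brain. Its mean was 15341 in muscle controls, and it was among the 5 of the 13 at least 4-fold brighter in liver or muscle controls. TTR and OTX2 were looked at after their values were seen. TTR, the thyroid hormone carrier that choroid plexus makes in large amounts, read 23091, 22058 and 10466 on the control arrays and 21941, 305 and 11301 on the heat arrays. OTX2, a factor of choroid plexus and midbrain, read 533, 246 and 44.6 in control brain and 248, 22.4 and 28.6 in heated brain. The groups overlapped for both genes, and heat array 2 was the lowest. Of 4 red blood cell markers tested 1 rose and 1 fell. The fall was that of ALAS1, which stood in for ALAS2 of the list through a synonym and was not itself listed as a marker. ALAS1 read 1242, 1138 and 1210 in control brain and 832.6, 764.6 and 874.5 in heated brain. HBA1, a globin of red blood cells, read 9997, 9308 and 13267 in control brain and 13257, 7079 and 4157 in heated brain. Its groups overlapped, with heat array 1 as high as the brightest control. CA2, of the same list, went the other way, at 2357, 2040 and 2174 in control brain and 3578, 3173 and 2971 in heated brain. What part the piece of tissue taken had in the other results was not tested.

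Glial markers read lower on heat arrays 2 and 3. Of 13 astrocyte markers 0 rose and 2 fell. FABP7, a fatty acid binding protein of radial glia and astrocytes, read 8067, 7217 and 7673 on the control arrays and 5557, 5392 and 5637 on the heat arrays. The heat arrays lay close together and below all controls, and it fell by 0.47 (SE 0.07, adjusted p = 0.0189). S100B, a calcium-binding protein of astrocytes, fell by 0.83. SLC1A3, the astrocytes' glutamate transporter, read 6387, 6562 and 5845 in control brain and 8871, 7759 and 7119 in heated brain, which is a change of 0.33 (SE 0.09, adjusted p = 0.0532). Leaving out heat array 1 gave 3 rises and 6 falls of astrocyte markers.

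Of 14 oligodendrocyte markers 0 rose and 1 fell, with a median of -0.40. The list's mean change was 0.02 on heat array 1, -0.70 on heat array 2 and -0.53 on heat array 3, and 6 fell without heat array 1. CNP, an enzyme of myelin, read 1156, 1145 and 2162 on the control arrays and 898, 520.2 and 713 on the heat arrays. Control array 3 was much brighter than the other controls, and CNP fell by 1.02 (SE 0.27, adjusted p = 0.046). SOX10, the factor that directs this lineage, read 550.3, 514 and 782 in control brain and 459, 315 and 367 in heated brain, a change of -0.66 with an adjusted p of 0.0524. Of 12 microglia markers, 9 of which were at least 4-fold brighter in liver or muscle, limma called 0 with all arrays (3 at an unadjusted p under 0.05) and 4 fell without heat array 1.

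Of 18 markers of endothelium and pericytes 1 rose and 2 fell. The falls were those of RAMP2 and S100A10. Both genes were brighter in liver and muscle controls than in brain controls, S100A10 by 1.94 and 1.41 on the log2 scale. The groups did not overlap for 9, 8 lower in heat and 1 higher, against 21.5% and 16.7% of all genes. As for the other lists, members were chosen with earlier results of these data known, so these counts describe the list and do not test it. PECAM1, an adhesion molecule of endothelium and platelets, read 203, 224 and 188 on the control arrays and 585, 441 and 319 on the heat arrays. It rose by 1.03 (SE 0.20, adjusted p = 0.0244) and was highest on heat array 1, which also had the highest readings of hepatocyte and skeletal muscle markers. What part that had in the rise was not tested. Of 17 genes of tight junctions and transport at the blood-brain barrier 1 rose and 1 fell. TJP1, a scaffold of tight junctions, read 166, 173 and 161 in control brain and 305, 270.1 and 263 in heated brain and rose by 0.69 (SE 0.10, adjusted p = 0.0186). CLDN5, the main claudin of brain endothelium, read 559.5, 518 and 517 in control brain and 415, 389 and 437 in heated brain, a change of -0.35 with an adjusted p of 0.0563. Of 36 genes of the extracellular matrix 0 rose and 5 fell, with a median of -0.32, and without heat array 1 2 rose and 19 fell. MMP15, a membrane-bound metalloproteinase, read 571, 565 and 571 on the control arrays and 371, 357 and 418 on the heat arrays. Its controls almost coincided, and it fell by 0.56 (SE 0.10, adjusted p = 0.024). The fibrillar collagen COL11A1 fell by 0.55 and the laminin chain LAMC1 by 0.43.

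**Figure D3:**
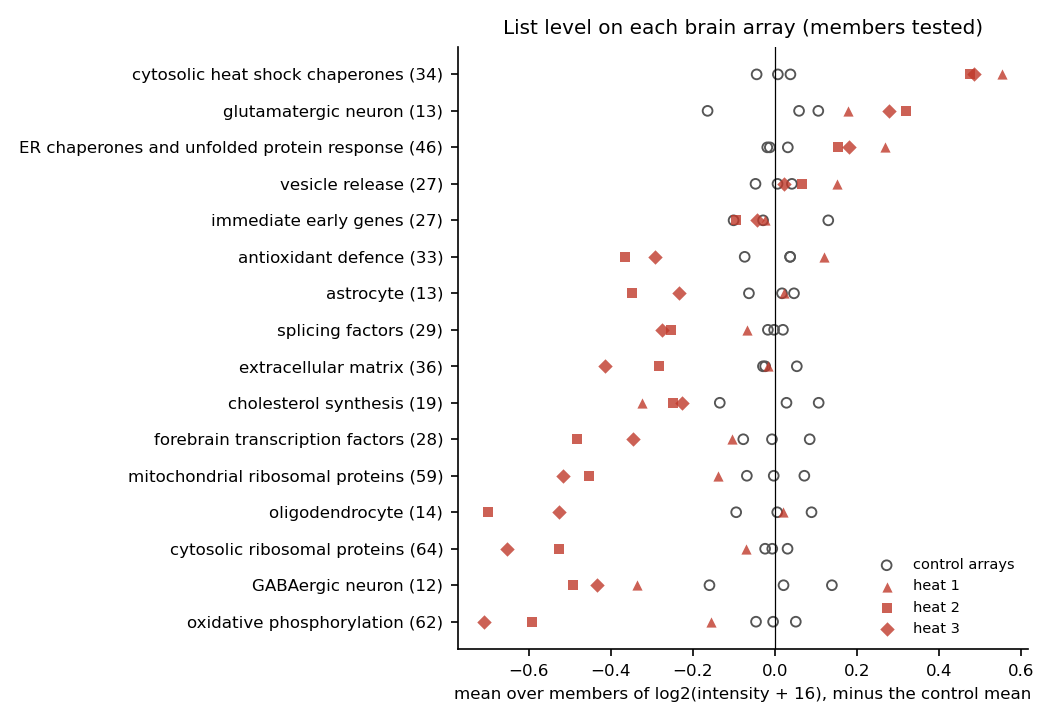
Mean over the tested members of 16 lists of log2(intensity + 16), minus the mean of the 3 control arrays. Open circles are control arrays and filled triangles, squares and diamonds are heat arrays 1, 2 and 3. Cytosolic chaperones lie at about 0.5 on all heat arrays, and ER chaperones at 0.27, 0.15 and 0.18 on heat arrays 1, 2 and 3. Oxidative phosphorylation, both ribosomes and oligodendrocyte markers lie at -0.45 or lower on heat arrays 2 and 3 and nearer control on heat array 1. There oxidative phosphorylation lies at -0.16, the mitochondrial ribosome at -0.14 and the cytosolic ribosome at -0.07, each below all control arrays. Oligodendrocyte markers lie at 0.02 on that array.

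Oxidative phosphorylation and the mitochondrial ribosome held more falls than any other list. Of 62 genes of oxidative phosphorylation 0 rose and 24 fell, and of 59 proteins of the mitochondrial ribosome 0 rose and 18 fell. Of 64 proteins of the cytosolic ribosome 0 rose and 4 fell. The medians were -0.49, -0.38 and -0.43. The groups did not overlap, with heat lower, for 50, 37 and 40 members, against 21.5% of all genes. With the array medians set equal the falls numbered 35, 20 and 20, and with quantile normalization 29, 19 and 18.

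In these 3 lists heat array 1 stood apart from the other heat arrays. The mean change of the mitochondrial ribosomal proteins was -0.14 on heat array 1, -0.45 on heat array 2 and -0.52 on heat array 3. For the cytosolic ribosomal proteins the same means were -0.07, -0.53 and -0.65. Without heat array 1, 50 genes of oxidative phosphorylation, 36 of the mitochondrial ribosome and 57 of the cytosolic ribosome fell. Leaving out any 1 of the other 5 arrays left 0 falls in the 3 lists, except for 2 and 3 falls of mitochondrial ribosomal proteins without control array 2 and heat array 3.

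MRPL55, a protein of the large mitochondrial subunit, read 623, 632 and 739 on the control arrays and 460.5, 356 and 343 on the heat arrays. It fell by 0.76 (SE 0.14, adjusted p = 0.0239). MRPL16 fell by 0.73, reading 1036, 1007 and 1105 in control brain and 762, 587 and 545 in heated brain, and MRPL2 by 0.74. In each of the 3, heat array 1 was the highest of the heat arrays and still below every control. NDUFB7, a subunit of complex I, read 1643, 1864 and 1996 on the control arrays and 1293, 759 and 726 on the heat arrays and fell by 1.02 (SE 0.21, adjusted p = 0.0268). RPL23 of the cytosolic ribosome read 3766, 3961 and 4027 in control brain and 3358, 2207 and 1964 in heated brain and fell by 0.68, with an adjusted p of 0.044.

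Of 20 genes of the tricarboxylic acid cycle 1 rose and 2 fell. SUCLA2, a subunit of succinyl-CoA ligase, read 810.3, 1109 and 951 on the control arrays and 1502, 1558 and 1519 on the heat arrays and rose by 0.68 (SE 0.12, adjusted p = 0.0239). IDH2 and PDHB, enzymes that feed or drive the cycle, fell by 0.40 and 0.41. Of 13 mitochondrial chaperones and proteases 2 rose and 1 fell. TRAP1, the HSP90 of mitochondria, read 1111, 1080 and 1091 in control brain and 793, 705 and 887 in heated brain and fell by 0.46 (SE 0.11, adjusted p = 0.036), while the chaperonin HSPD1 rose by 0.44.

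The cytosolic heat shock chaperones had the largest share of rises among the process lists with at least 10 members tested. Of 34, 16 rose (13 of them outside the flag for other tissues) and 0 fell, with a median of 0.33. Without heat array 1, 17 of them rose and 2 fell. Of 46 ER chaperones and genes of the unfolded protein response 13 rose and 2 fell, with a median of 0.11. Without heat array 1, 17 of these 46 rose and 5 fell. CRELD2, a secretory pathway protein that ER stress induces, read 336, 342 and 319.9 on the control arrays and 865, 882 and 840.1 on the heat arrays. The arrays within each group almost coincided, and the rise was 1.33 (SE 0.09, adjusted p = 0.00161). HSP90B1, the HSP90 of the ER, read 1417, 2064 and 1592 in control brain and 5175, 4583 and 4212 in heated brain and rose by 1.47. These calls also depended on single arrays: without control array 1, control array 3 or heat array 2, 3, 4 and 4 cytosolic chaperones and 2, 4 and 4 ER genes rose. Across all genes 9 probe sets stayed called in all 6 fits that left out an array, those of HSPA2, BAG3, DNAJA4, CRELD2, HSPB9, HSPA4L and HSPA5. The BAG3 and HSPB9 probe sets among them carried the flag for other tissues, through muscle controls.

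The cytosolic chaperonin and prefoldin fold newly made protein such as actin and tubulin. Of 12 members 1 rose and 2 fell. CCT2, a subunit of the chaperonin ring, read 2482, 2745 and 2588 in control brain and 3195, 3482 and 3276 in heated brain and rose by 0.35. PFDN1, a subunit of prefoldin, read 1690, 1820 and 2101 on the control arrays and 1458, 785 and 718 on the heat arrays. It fell by 0.98 (SE 0.24, adjusted p = 0.0392) and was brighter on heat array 1 than on the other heat arrays. Of 8 heat shock factors and their regulators limma called 0, and 4 were lower at an unadjusted p under 0.05. Without heat array 1, 0 of the 8 rose and 4 fell. Of 35 proteasome genes 0 rose and 2 fell, and 0 rose and 9 fell without heat array 1. Of 37 genes of ubiquitin and its ligases 3 rose and 1 fell, and the 3 with the smallest p were all cullins, the scaffolds of a family of ubiquitin ligases. CUL5 read 92.0, 114 and 106 on the control arrays and 204, 195 and 157 on the heat arrays and rose by 0.74 (SE 0.13, adjusted p = 0.0221), CUL3 rose by 0.53 and CUL1 by 0.61.

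RNA handling and translation showed changes in both directions. Of 20 cold-inducible and RNA-binding genes 4 rose and 2 fell. CLK1, a kinase of splicing factors, read 571, 587 and 496 on the control arrays and 832, 844 and 789 on the heat arrays. It rose by 0.57 (SE 0.11, adjusted p = 0.024), and LUC7L3, a splicing-related protein, by 0.63. HNRNPD, which binds AU-rich elements of RNA, read 3764, 3492 and 3639 in control brain and 2824, 2778 and 2677 in heated brain and fell by 0.39. A dimmer HNRNPD probe set had a change of 0.37 and was not called. Of 29 splicing factors 2 rose and 3 fell, and 11 fell without heat array 1. The groups did not overlap for 3 upward and 14 downward, against 16.7% and 21.5% of all genes. PRPF19 read 1483, 1445 and 1557 in control brain and 1209, 912 and 774 in heated brain and fell by 0.65 (SE 0.15, adjusted p = 0.0362). Of 41 translation initiation genes 4 rose and 1 fell. EIF5B, which joins the ribosomal subunits, read 173, 254 and 233 on the control arrays and 359, 378 and 346 on the heat arrays and rose by 0.69 (SE 0.14, adjusted p = 0.0286). With the array medians set equal, 1 translation initiation gene rose and 2 fell, and 0 splicing factors rose and 4 fell.

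The ATF4 pathway is the branch of the stress response that supplies amino acids. Of 31 genes tested, 5 rose and 0 fell, with a median of 0.16. ATF4 itself, its transcription factor, read 4459, 3852 and 4028 on the control arrays and 5412, 6429 and 5326 on the heat arrays and rose by 0.47 (SE 0.10, adjusted p = 0.0287). MTHFD2, an enzyme of mitochondrial folate metabolism, read 480.5, 404 and 436 on the control arrays and 729, 927 and 836 on the heat arrays on its brightest probe set. Its heat arrays lay above all controls and it rose by 0.89 (SE 0.12, adjusted p = 0.0143). The cysteinyl-tRNA synthetase CARS read 1126, 1398 and 1349 in control brain and 2577, 2470 and 1998 in heated brain and rose by 0.85. With the array medians set equal 3 of the 31 rose and 1 fell.

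Several programmes that often answer acute stress gave few calls among the members bright enough to be tested. The immediate early genes FOS, EGR4, NR4A3, ATF3 and KLF4 were below the level filter and were not tested. Of 27 immediate early genes 0 rose and 1 fell, with a median of -0.02. That fall was GADD45A, a growth arrest gene, which read 600.4, 729 and 721 on the control arrays and 507, 463 and 508 on the heat arrays and fell by 0.46 (SE 0.11, adjusted p = 0.0404). HOMER1, a synaptic scaffold, read 473, 604 and 447 in control brain and 644, 802 and 655 in heated brain, a change of 0.46 with an adjusted p of 0.0709. Of 20 glucocorticoid responsive genes 2 rose and 0 fell. FKBP4, which is also a partner of HSP90 in steroid receptor complexes, read 2850, 3241 and 2889 on the control arrays and 4897, 5120 and 4786 on the heat arrays and rose by 0.72 (SE 0.08, adjusted p = 0.0123). The other, PDK4, was at least 4-fold brighter in another tissue. PDK4 read 164, 174 and 103 in control brain and 908, 539 and 312 in heated brain, highest on heat array 1.

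NFKB1, NFKB2, RELA, TNFAIP3, IL1B, IL8L1, IL8L2, CCL20 and IL10 were among the NF-kappa-B and cytokine genes below the filter and were not tested. Of 24 genes of this list that were tested limma called 0, and at an unadjusted p under 0.05 there were 2 higher and 3 lower. Of 33 antioxidant genes it called 0, with 1 higher and 9 lower at that level, and 9 fell without heat array 1. GPX4, which reduces lipid peroxides, read 6449, 6389 and 6728 on the control arrays and 5913, 4107 and 4327 on the heat arrays, a change of -0.47 (SE 0.13, adjusted p = 0.052). The value of heat array 1 lay nearer the controls than the other heat arrays. At an unadjusted p under 0.05, 6130 of all 19220 probe sets passed.

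Of 19 clock genes 2 rose and 1 fell. NFIL3, a repressor that acts on clock and immune genes, read 124, 149 and 117 on the control arrays and 317, 237 and 173 on the heat arrays. The rise was 0.79 (SE 0.20, adjusted p = 0.0404) and was largest on heat array 1. CRY1, a core repressor of the clock, read 1306, 1449 and 1161 in control brain and 1698, 1852 and 1665 in heated brain and rose by 0.41, and BHLHE41, another repressor, fell by 0.45. Since heat and time of sampling went together, these values do not separate them. Of 21 hypoxia genes 2 rose and 1 fell. P4HA2, a collagen prolyl hydroxylase, read 197, 188 and 178 in control brain and 381, 290 and 340.3 in heated brain and rose by 0.79 (SE 0.12, adjusted p = 0.0198). TFRC, the transferrin receptor, read 474, 509.7 and 512 on the control arrays and 295, 289.7 and 308 on the heat arrays and fell by 0.71 (SE 0.10, adjusted p = 0.0143). TFRC was at least 4-fold brighter in liver controls than in brain controls.

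Of 19 genes of cholesterol synthesis 0 rose and 3 fell, with a median of -0.22. LSS, which closes the sterol rings, read 632, 551 and 709 on the control arrays and 268, 366 and 384 on the heat arrays and fell by 0.87 (SE 0.16, adjusted p = 0.0239). HSD17B7 and SC5D, later enzymes of the pathway, fell by 0.66 and 0.46. Unlike the mitochondrial lists, the mean change was of like size on the 3 heat arrays, at -0.32, -0.25 and -0.23. Of 28 genes of apoptosis and p53 1 rose and 3 fell, among them BCL2L1, which protects against apoptosis and read 712, 662 and 682 in control brain and 502, 438 and 519.6 in heated brain, a fall of 0.48.

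Other general lists had shares of called members near or below the 12.2% of all genes. The share was 9.09% to 11.8% for the cytoskeleton, cell cycle, glycolysis and thyroid hormone lists. For histones and chromatin, autophagy and lysosome, insulin signalling and MAP kinase feedback it was 0% to 3.85%. Of 36 cytoskeleton genes 2 rose and 2 fell, and 2 rose and 8 fell without heat array 1. KIF1A, a motor that carries synaptic vesicle precursors along axons, read 538, 496 and 556 on the control arrays and 276, 264 and 393 on the heat arrays and fell by 0.76 (SE 0.15, adjusted p = 0.0268). NES, the intermediate filament of neural precursors, read 210.2, 193 and 297 in control brain and 126, 96.8 and 149 in heated brain and fell by 0.83. Of 34 cell cycle genes 2 rose and 2 fell, of 34 histone and chromatin genes 0 rose and 1 fell, and of 32 genes of autophagy and lysosome 0 rose and 1 fell. Of 26 glycolysis genes 2 rose and 1 fell, of 26 genes of insulin signalling 1 rose and 0 fell, and of 11 thyroid hormone genes 0 rose and 1 fell. Of 23 MAP kinase phosphatases and feedback genes limma called 0, and 3 passed an unadjusted p under 0.05.

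**Figure D4:**
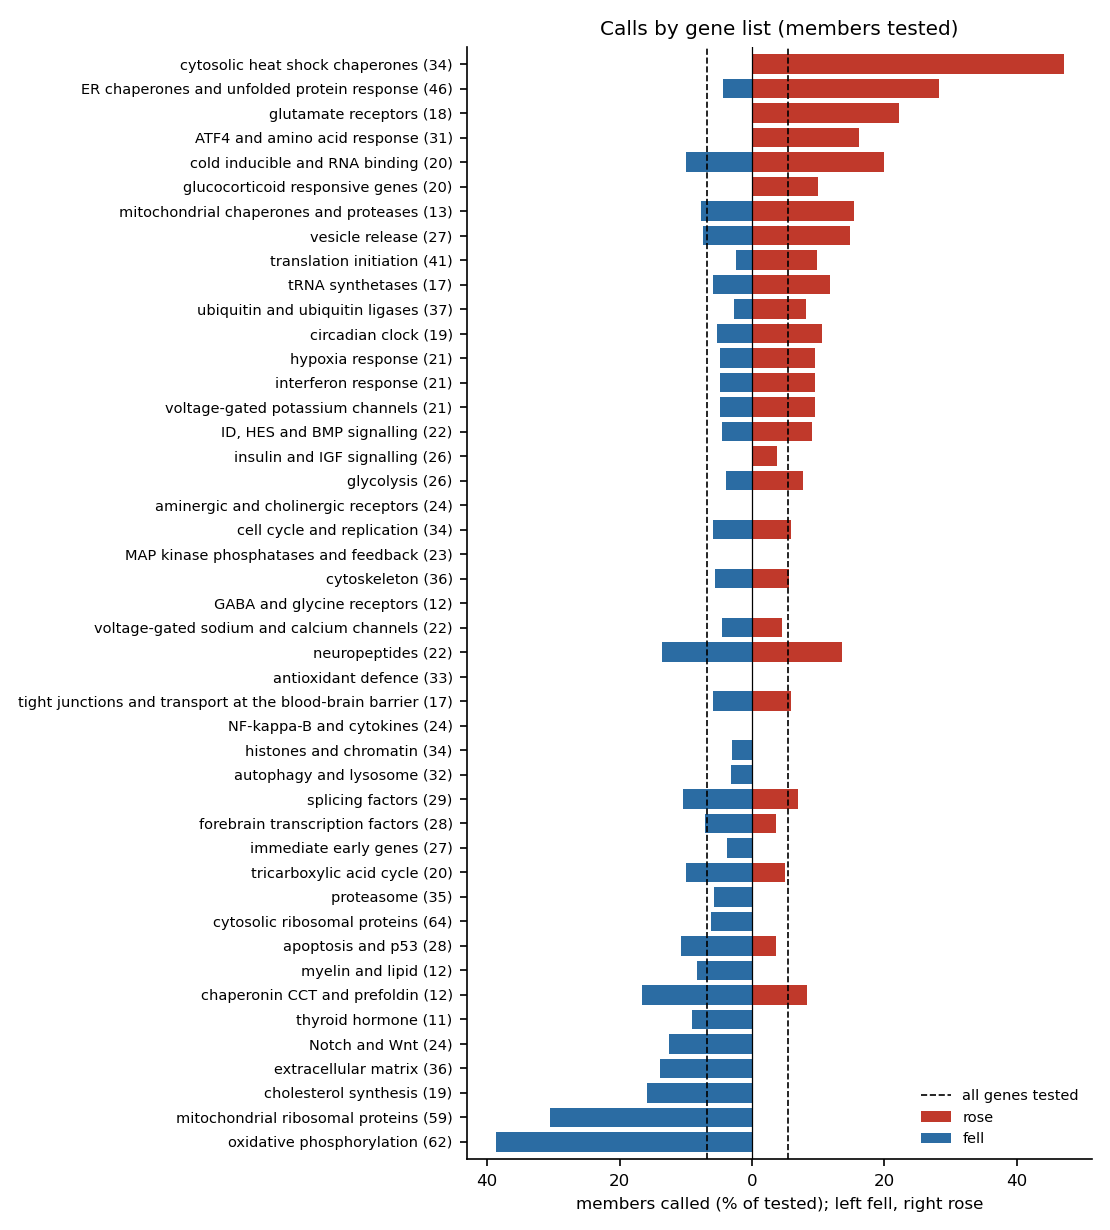
Share of the tested members of each process list with at least 10 members tested that rose (red, to the right) and fell (blue, to the left) in heated brain, in percent. Dashed lines mark the 5.37% and 6.85% of all 9435 genes that rose and fell. Cytosolic chaperones and ER chaperones reach furthest to the right, and oxidative phosphorylation and the mitochondrial ribosome furthest to the left.

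Probe sets much brighter in other tissues need a reading of their own. Of the 19220 tested, 1069 were at least 4-fold brighter in liver or muscle controls than in brain controls. Of these 58 rose (5.43%) and 37 fell (3.46%), against 6.61% and 5.87% of the rest. Among changes of at least 2-fold the flagged probe sets were 21 of 68 rises and 1 of 40 falls. Part of that split is set by the level filter: probe sets dim in control brain, such as FGG, PIT54 and MYL1, passed it only through the heat arrays and could enter only as rises. The 8 largest flagged rises were ALB, FGG, HSPB9, PIT54, FGB, MYL1, ACTA1 and TNNT3, by the named-gene rule. ALB, serum albumin, made by hepatocytes, read 65.7, 61.6 and 54.1 on the control arrays and 13260, 756 and 1099 on the heat arrays. ACTA1, the actin of skeletal muscle, read 139, 197 and 206 on the control arrays and 2830, 1619 and 870.1 on the heat arrays. Heat array 1 was by far the highest for ALB and the highest for ACTA1. TNNT3, a troponin of fast muscle, read 80.0, 78.9 and 61.8 in control brain and 608, 604 and 314 in heated brain, with heat arrays 1 and 2 alike.

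HSPB9, a small heat shock protein, carried the flag through muscle, where its control level was 3.28 above that of brain on the log2 scale. It read 332, 152 and 389 on the control arrays and 6690, 4268 and 4188 on the heat arrays, and the rise was 4.11 (SE 0.32, adjusted p = 0.00208), 3.89 without heat array 1. Genes of the interferon response were mostly flagged, 14 of 21 tested. IFIH1, a sensor of double-stranded RNA, read 64.8, 92.9 and 75.04 on the control arrays and 147, 149 and 169 on the heat arrays. It rose by 0.88 (SE 0.13, adjusted p = 0.0163) and was of like level on the 3 heat arrays. IFIT5, another gene of the response, read 70.3, 140.4 and 147 in control brain and 306, 323 and 203 in heated brain and rose by 1.15, and IFI35 fell by 0.51. What part RNA of other tissues had in these calls was not tested.

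Whether brain differed from the other tissues was tested over all 18 arrays, as the heat effect in brain minus the mean of those in liver and leg muscle. Of 19220 probe sets 137 differed (0.713%), 58 with a higher effect in brain (0.302%) and 79 with a lower one (0.411%). Of the 58, 43 had also been called as rises in brain, and of the 79, 32 as falls. With quantile normalization of all arrays 137 were called again, 70 higher and 67 lower. On heat arrays 1, 2 and 3 HINTW read 3125, 5090 and 7268 in liver and 2712, 3816 and 5446 in muscle, the same order as in brain. The labels do not say whether same-numbered arrays share birds, and the fit treats all 18 as independent. With same-numbered arrays of a treatment as a block across tissues, an alternative chosen after seeing the data, 201 were called, 70 higher and 131 lower. Both single contrasts, against liver and against muscle, passed in the same direction for 24. Leaving out a brain array gave 23 calls (heat array 2) to 730 calls (heat array 1), with 36, 65 and 44 without control arrays 1, 2 and 3 and 63 without heat array 3.

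Genes with a higher effect in brain included cell adhesion molecules of neurons. NRCAM read 109 ± 10.9 (SD, n = 3) in control brain and 235 ± 36.6 (SD, n = 3) in heated brain. In liver and muscle this probe set stood at 22 to 26 in every group, so a change there could hardly be read. Its effect was 1.01 higher in brain (SE 0.16, adjusted p = 0.00801). A brighter NRCAM probe set went from 375.1 to 830.3 in brain, a rise of 1.11, but was not called in the test between tissues. Its control and heat means were 8.59 and 11.85 in liver and 14.64 and 28.61 in muscle. NCAM2, another adhesion molecule, went from 105 ± 13.6 to 216 ± 26.1 in brain and stood at 13 to 18 elsewhere. CSRNP3, a nuclear protein of nervous tissue, went from 227 ± 23.4 to 461 ± 57.7 in brain, from 61.7 ± 4.79 to 44.2 ± 10.7 in liver and from 97.9 ± 7.21 to 96.0 ± 9.91 in muscle.

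A dimmer MTHFD2 probe set than the one above had the smaller p in this test and read 147, 141 and 138 in control brain and 266, 351 and 319 in heated brain. In muscle the same probe set went from 504 ± 159 to 321 ± 11.8 and in liver from 94.4 ± 15.1 to 77.9 ± 18.4, below the brain filter of 96.07. The effect in brain was 1.46 higher than the mean of the others (SE 0.22, adjusted p = 0.00792). It passed against each tissue alone, with adjusted p of 0.0176 for liver and 0.0123 for muscle. The brighter MTHFD2 probe set had means of 440.0 (control) and 830.7 (heat) in brain. Its liver means were 317.5 and 216.4 and its muscle means 1706 and 1152, a difference of 1.42 (SE 0.22, adjusted p = 0.00811). C2H8ORF76, an open reading frame with no role given here, went from 95.0 ± 9.29 to 213 ± 21.4 in brain, with liver at 93.6 ± 1.24 and 95.2 ± 5.64. HECTD2, a ubiquitin ligase, rose by 0.48 in brain and fell in muscle, from 98.7 ± 13.4 to 56.4 ± 5.42.

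Of the 6 named genes with a lower effect in brain, 5 rose in liver or muscle in the fit over 18 arrays. IRS4, an adaptor of insulin and growth factor receptors, read 631, 755 and 612 in control brain and 755, 676 and 707 in heated brain, with groups that overlap. In liver it went from 656 ± 147 to 1767 ± 124 and in muscle from 375 ± 40.9 to 1076 ± 283. The effect in brain was -1.34 relative to their mean (SE 0.21, adjusted p = 0.0082), and both single contrasts passed. ASB2, a substrate receptor of a cullin ligase, rose by 3.03 in muscle, from 246 ± 58.7 to 2113 ± 416, and was at 148 ± 11.5 and 169 ± 12.4 in brain. Against liver alone the ASB2 effect was 0.28 higher in brain and did not pass (adjusted p = 0.566).

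SLC22A5, the carnitine transporter, read 852, 839 and 743 in control brain and 677, 511 and 566 in heated brain and had been called as a fall in brain (adjusted p = 0.0485). In liver it went from 580.2 ± 66.4 to 1900 ± 430.5, while in muscle it was at 239 ± 11.8 and 252 ± 50.5. A brighter SLC22A5 probe set, with brain means of 3902 (control) and 3098 (heat), was not called in brain (adjusted p = 0.115). Its difference between tissues was called, at -0.89. PQLC1, a membrane protein, went from 671 ± 25.1 to 462 ± 27.2 in brain and from 911 ± 79.2 to 1456 ± 159 in liver. PAK6, a kinase bright in brain, was at 1551 ± 35.2 and 1214 ± 182 there, and went from 63.8 ± 4.73 to 166 ± 33.1 in muscle. C20orf96, with no role given here, went from 142 ± 4.76 to 78.0 ± 9.77 in brain and stood at 12 to 20 in the other tissues.

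**Figure D5:**
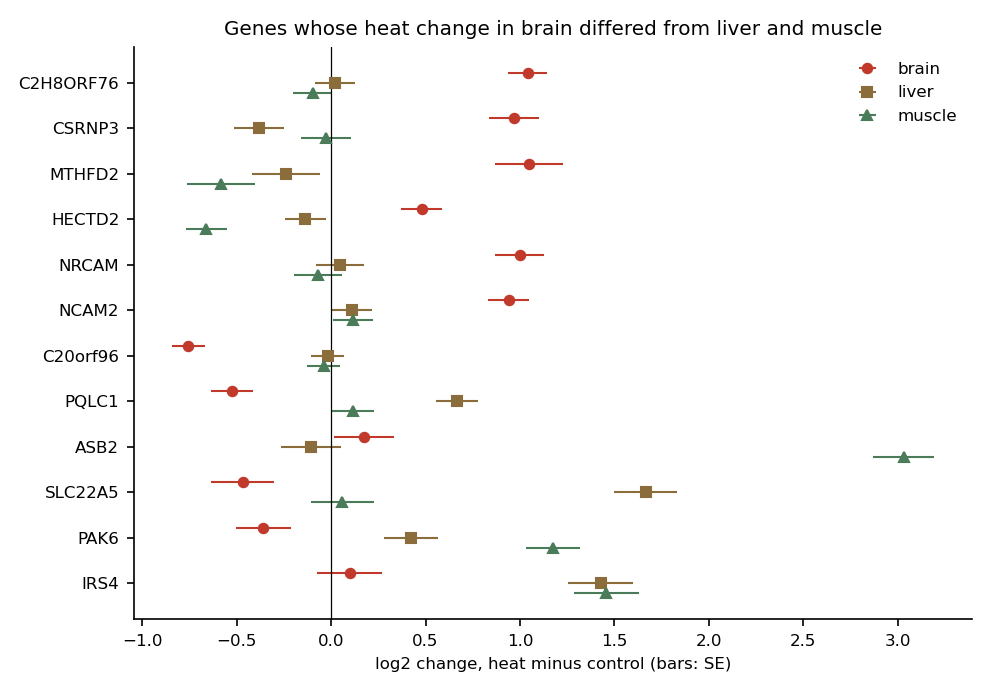
Log2 change, heat minus control, in brain (circles), liver (squares) and leg muscle (triangles) for the 6 genes with the smallest p in each direction of the difference between brain and the mean of the other tissues. Bars are standard errors of the fit over 18 arrays. NRCAM, NCAM2 and C20orf96 are dim in liver and muscle, where a change could hardly be read.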

How the data were processed

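Biotin-labelled RNA was hybridised to Affymetrix chicken genome arrays, per the labels' protocols. The deposited values are intensity per probe set, made with GCOS 1.4 per the submitters' processing notes; how arrays were scaled is not stated there. The 2% trimmed means of the 6 brain arrays lay within a ratio of 1.07, so the deposited scaling was kept. From these values log2(intensity + 16) was computed, control probe sets were left out, and limma 3.58.1 (R 4.3.3) was fitted with a variance prior that follows intensity; p-values were adjusted by Benjamini-Hochberg over the 19220 probe sets tested. Precision is limited by the number of arrays, 3 a group. Gene symbols came from the platform annotation, where 177 probe sets had several symbols and 11094 none; 26161 matched current RefSeq symbols (GRCg7b). For gene lists the brightest tested probe set of each gene in brain was used, and some members were matched through RefSeq synonyms.

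A probe set was flagged where its liver or muscle control mean was at least 4-fold above its brain control mean. Genes named in the text were the 12 rises and 12 falls called, outside the flag and with the widest gap between groups, the 3 members of each list with the smallest p, the 8 largest flagged rises, and the 6 genes in each direction with the smallest p for the difference between tissues. Members and lists were chosen with earlier results of these data known. Replicate numbers did not pair the arrays: the deviations of same-numbered control and heat arrays correlated at -0.09, -0.08 and -0.04. The fitting step was tested on simulated data with independent noise for each probe set. Shifts common to many genes of an array were not simulated, so that test does not cover them. A planned search of promoters for motifs was not analysed here. Where arrays of a group may share birds is not given in the sources used here, so p-values measure the spread between these arrays.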

Additional observations from a re-analysis of the deposited data

Results flagged for a closer look

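137 probe sets had a heat effect in brain that differed from the mean of the liver and leg muscle effects in the test of that difference over 18 arrays (limma, Benjamini-Hochberg adjusted). On the log2 scale the difference was 1.08 for C2H8ORF76, 1.17 for CSRNP3, 1.46 for MTHFD2, 0.88 for HECTD2, 1.01 for NRCAM and 0.83 for NCAM2, each with a higher effect in brain. It was -0.73 for C20orf96, -0.92 for PQLC1, -1.29 for ASB2, -1.33 for SLC22A5, -1.16 for PAK6 and -1.34 for IRS4, each with a lower effect in brain than that mean. Against liver alone HECTD2, ASB2 and PAK6 did not pass (adjusted p = 0.0517, 0.566 and 0.0624). Against muscle alone PQLC1 and SLC22A5 did not pass (adjusted p = 0.104 and 0.388). With probe sets limited to those whose control level reached the brain filter in all 3 tissues, 48 differed. That limit was chosen after seeing the data.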

How the results depend on the processing

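The number of probe sets called in brain stayed within 1.5 times of 2361 under quantile normalization, equal array medians, both other pseudocounts, no filter, a stricter filter, no intensity trend and both flags for other tissues, from 1687 to 2722. It was 1502 in the fit on all 18 arrays and 6922 with array weights. Leaving out 1 array gave 11 to 4434, the lowest without control array 1 and the highest without heat array 1; at an unadjusted p under 0.05 these fits passed 4134 to 6968 probe sets. Without heat array 1 and outside the 4-fold flag, chosen after seeing the data, 4261 were called. With the replicate number as a block, although the numbers did not pair the arrays, 505 were called, and the number for the difference between tissues went from 137 to 132, and to 201 with the number as a block within each treatment, chosen after seeing the data. That number was 365 with a pseudocount of 64, 24 where both single contrasts had to pass, and 48 where the level had to reach the filter in all 3 tissues; leaving out 1 brain array gave 23 to 730. Of 143 named calls 0 changed direction under any alternative. Genes whose groups do not overlap could not change direction when an array was left out, so that count is no test for them. The fit on 18 arrays kept 88 of the named calls, no filter 114 and equal array medians 131. The cause of these differences was not tested. Counts of list members without heat array 1 were added after seeing the data. Intensities near the controls for background (6.06 to 64.99 for 6 bacterial probe sets) limit what dim probe sets can show.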
